A study of Mus musculus with 21 samples.

Results

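The comparison described here set HEL pos B cells of the mesenteric lymph nodes (mLN), the lymph nodes that drain the intestine, against HEL pos B cells of the spleen, the lymphoid organ that filters blood. It rests on 6 of the 21 RNA sequencing libraries of the series, 3 of each tissue, chosen by their labels alone, and on the 11419 of 23337 genes of the table that passed a filter on low counts. All mice were C57BL/6 and aged 8 to 12 weeks, and the cells were sorted straight into Trizol. The mLN HEL pos group and the spleen HEL pos group each hold a pooled library (Pool) and the libraries 392 and 399, always given here in that order. The same tissue comparison was also read in BCL2 HEL pos cells (libraries 922, 926 and 950 of each tissue) and in HEL neg cells (1 pooled library of each tissue). The labels do not expand HEL or BCL2, do not name the promoter or cell type behind either, and do not say how many mice a pool holds or whether a numbered library is a single mouse. By its title the series concerns gut B cells that react to self. The p-values set the difference of group means against the spread between libraries of a group, estimated over all groups of the fit. Since the labels leave the number of mice open, that spread need not be a spread between mice. Part of it may be technical.

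A B cell senses antigen through its surface receptor, a membrane immunoglobulin paired with the signalling chains CD79A and CD79B. Receptor signals switch on immediate early genes, among them the NR4A orphan nuclear receptors and the EGR zinc finger factors, and B cells that meet self antigen over long periods keep part of that response while their signalling is dampened, a state called anergy. The spleen houses marginal zone B cells, which depend on NOTCH2 and on sphingosine phosphate receptors for their position, while B cells of lymph nodes enter from blood through high endothelial venules and leave through lymph.

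Library totals ran from 6578763 to 10384341 counts. The 3 mLN libraries correlated with each other at Spearman's rho of 0.982 to 0.988 across genes, the 3 spleen libraries at 0.975 to 0.978, and libraries of different tissues at 0.933 to 0.955. Levels are counts per 1000000 of the TMM-scaled library total (CPM). They are not divided by gene length, so they are compared between libraries and not between genes. At these depths 3 counts, the floor used here, equal 0.299 to 0.454 CPM. Y-linked transcripts summed to 139 CPM in the pooled mLN library and 133 CPM in the pooled spleen library, against at most 0.738 CPM in the libraries 392 and 399 of both tissues, so the pools hold RNA of male mice in both tissues and the numbered libraries do not. B cell marker genes (Cd79a, Ms4a1, Pax5 and Cd79b) summed to 7761, 8541 and 7614 CPM in mLN and 15831, 17551 and 18042 CPM in spleen libraries, and all 4 were detected in every library.

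A gene was called where the adjusted p of edgeR's quasi-likelihood test was under 0.05. Among the 11419 genes tested, 1476 were called higher in mLN, a share of 12.9%, and 1318 were called lower, a share of 11.5%. Of these, 499 were over 2-fold higher and 581 over 2-fold lower, and 46 were over 16-fold higher and 37 over 16-fold lower. The 3 mLN libraries lay above all 3 spleen libraries for 2382 genes (20.9%) and below them for 2229 genes (19.5%). The groups did not overlap for 1429 of the genes called higher and for 1270 of those called lower. In bulk samples, fewer cells of a type that express a gene and less of its RNA per cell cannot be told apart.

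The NR4A and EGR genes were higher in mLN, whereas Jun, Klf4 and Klf6 of the same immediate early list were lower. The upstream sequence of 4 of these genes is shown because they moved in both directions: Nr4a1, Nr4a2 and Egr2 were higher in mLN and Klf4 was lower. They were chosen among genes whose window holds a match, and the promoters of Nr4a3, Nab2, Ier5l, Jun and Klf6 in the table hold none of the motifs searched. Each run is the 250 bases before the RefSeq start on the gene's own strand in build GRCm38.p6, and none of these windows has a base in an annotated exon. Capitals mark matches, on either strand, to the EGR motif GCGNGGGCG or to the CArG box, the element bound by serum response factor.
Nr4a1: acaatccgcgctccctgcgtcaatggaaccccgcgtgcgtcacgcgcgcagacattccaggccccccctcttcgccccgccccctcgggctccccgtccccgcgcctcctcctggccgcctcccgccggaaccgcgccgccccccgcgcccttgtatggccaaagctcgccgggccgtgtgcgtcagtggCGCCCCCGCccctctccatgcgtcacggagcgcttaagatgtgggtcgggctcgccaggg
Nr4a2: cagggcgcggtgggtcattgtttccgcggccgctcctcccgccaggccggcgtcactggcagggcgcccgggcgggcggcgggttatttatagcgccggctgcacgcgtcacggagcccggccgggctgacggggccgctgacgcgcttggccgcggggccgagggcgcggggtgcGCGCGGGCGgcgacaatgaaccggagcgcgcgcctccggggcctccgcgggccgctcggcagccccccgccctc
Egr2: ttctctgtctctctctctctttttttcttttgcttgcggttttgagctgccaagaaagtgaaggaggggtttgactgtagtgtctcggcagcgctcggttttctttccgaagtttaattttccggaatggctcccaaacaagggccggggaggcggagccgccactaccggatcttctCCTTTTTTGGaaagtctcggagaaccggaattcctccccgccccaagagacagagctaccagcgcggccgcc
Klf4: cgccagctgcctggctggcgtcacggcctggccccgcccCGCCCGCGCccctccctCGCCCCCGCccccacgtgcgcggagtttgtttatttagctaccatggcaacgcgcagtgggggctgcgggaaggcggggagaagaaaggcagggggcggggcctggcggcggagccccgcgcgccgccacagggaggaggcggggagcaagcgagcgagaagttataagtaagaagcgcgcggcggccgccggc
The windows lie at chr15:101266596-101266845 (plus strand), chr2:57124004-57124253 (minus strand), chr10:67537316-67537565 (plus strand) and chr4:55532476-55532725 (minus strand). Egr2 has 5 starts in the table, and the window shown is the one that holds a match. The motifs TGACGTCA (CRE), TGANTCA (AP-1) and AAAGGTCA (NBRE) were searched as well, have no match in these 4 windows, and no matches overlap there. Promoters not shown also hold matches. Klf2, Gadd45b and Zfp36 hold the EGR motif, Zfp36 also a CArG box and Dusp1 a CRE, and these genes were lower in mLN. Fosb, which was not called, holds the EGR motif, and Btg2 the EGR motif and a CRE. Over promoters of the table, the EGR motif was in 9.65% of 1129 genes called higher, 12.2% of 944 called lower, 10.1% of 8226 tested and 5.33% of all 27025. The CArG box was in 1.68% of those called higher, 2.12% of those called lower and 1.35% of those tested. These are matches of letters in a short window, and the genes called higher held the EGR motif about as often as all tested genes.

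Nr4a1 encodes NUR77, whose transcript follows the strength of antigen receptor signals. Its level was 238, 254 and 404 CPM in mLN libraries, against 32.6, 40.1 and 48.0 CPM in spleen libraries (chr15:101254269-101274795, plus strand, mm10). All 3 mLN values were far above the spleen values, with a log2 fold change of 2.90 ± 0.29 and an adjusted p of 4.4e-07 (here and below ± is the SE of the fit and the p is adjusted over all genes tested). The other NR4A receptors had low counts but moved the same way. Nr4a3 was at 4.49, 4.69 and 11.0 CPM in mLN libraries, against 0.112, 0.303 and 0.443 CPM in spleen libraries, with a log2 fold change of 4.54 ± 0.82 and an adjusted p of 2.9e-04. Nr4a2 was at 5.23, 3.09 and 8.92 CPM in mLN libraries, against 0, 0 and 0.148 CPM in spleen libraries, and its 140 summed counts in mLN against 1 in spleen give a ratio of 121 (95% exact counting interval 21.3 to 4795).

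Egr2, a zinc finger factor tied to B and T cell tolerance in mice, was at 142, 137 and 175 CPM in mLN libraries, against 5.38, 4.09 and 5.46 CPM in spleen libraries (chr10:67535475-67542188, plus strand, mm10). Its log2 fold change was 4.91 ± 0.33, adjusted p = 2.2e-09. Egr1 reached 170.4, 202 and 261 CPM in mLN libraries, against 27.3, 51.3 and 32.3 CPM in spleen libraries. The Egr1 log2 fold change was 2.52 ± 0.24, with an adjusted p of 1.8e-07. Egr3 was at 11.3, 17.5 and 21.6 CPM in mLN libraries, against 2.24, 5.30 and 3.84 CPM in spleen libraries, with a log2 fold change of 2.16 ± 0.37 and an adjusted p of 1.9e-04. Nab2, the corepressor that EGR factors induce and that binds them, was at 80.6, 93.8 and 131 CPM in mLN libraries, against 13.3, 15.8 and 3.10 CPM in spleen libraries. The Nab2 log2 fold change was 3.24 ± 0.39, with an adjusted p of 3.3e-06. Further called members were Myc at 1.57 ± 0.18, the plasma cell and activation factor Irf4 at 1.45 ± 0.17, the activation marker Cd83 at 1.98 ± 0.16 and Ier5l at 2.99 ± 0.73. Klf10 and Bhlhe40 were called higher too. The anergy and tolerance list, which holds Nr4a1, Egr2 and Egr3, had no common direction. Of its 32 tested members 9 were called higher, 6 lower and 17 not called, with a median of −0.11. Cblb and Sdc4 were among the lower ones. Their log2 fold changes without single libraries ran from −1.32 to −1.16 and from −1.41 to −1.16.

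The AP-1 genes Fos, Fosb, Junb and Jund were not called. Fos was at 3.61, 29.7 and 24.9 CPM in mLN libraries, against 25.8, 81.0 and 60.5 CPM in spleen libraries, and its log2 fold change of −1.51 ± 0.63 was not called (adjusted p = 0.09). Its pooled libraries were the lowest of each tissue and the groups overlapped. Fosb was not called either (−1.64 ± 0.78, adjusted p = 0.14), and Junb did not differ beyond its spread (0.16 ± 0.24, adjusted p = 0.69). Jun, by contrast, fell to 30.4, 43.5 and 44.9 CPM in mLN libraries, against 93.1, 87.8 and 87.1 CPM in spleen libraries, with a log2 fold change of −1.17 ± 0.21 and an adjusted p of 3.2e-04. Klf2, a quiescence factor that drives S1pr1 and is not in that list, was at 41.1, 33.9 and 27.9 CPM in mLN libraries, against 155, 215 and 103 CPM in spleen libraries. The Klf2 log2 fold change was −2.20 ± 0.29, with an adjusted p of 7.8e-06. Klf4 was at 0.249, 1.70 and 1.33 CPM in mLN libraries, against 1.79, 10.0 and 7.38 CPM in spleen libraries, with a log2 fold change of −2.50 ± 0.80 and an adjusted p of 0.026, and its call was lost without mLN Pool, mLN 399, spleen 392 or spleen 399 (adjusted p up to 0.114). Gadd45b (−1.51 ± 0.16), the mRNA decay factor Zfp36 (−0.89 ± 0.21) and, from the feedback list, the MAP kinase phosphatase Dusp1 (−1.97 ± 0.46) were lower too, while Cd69 was not called. In all, 13 of 33 tested members of the immediate early list were called higher and 6 lower, with a median log2 fold change of 0.43, beside −0.01 over all genes tested.

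**Figure D1:**
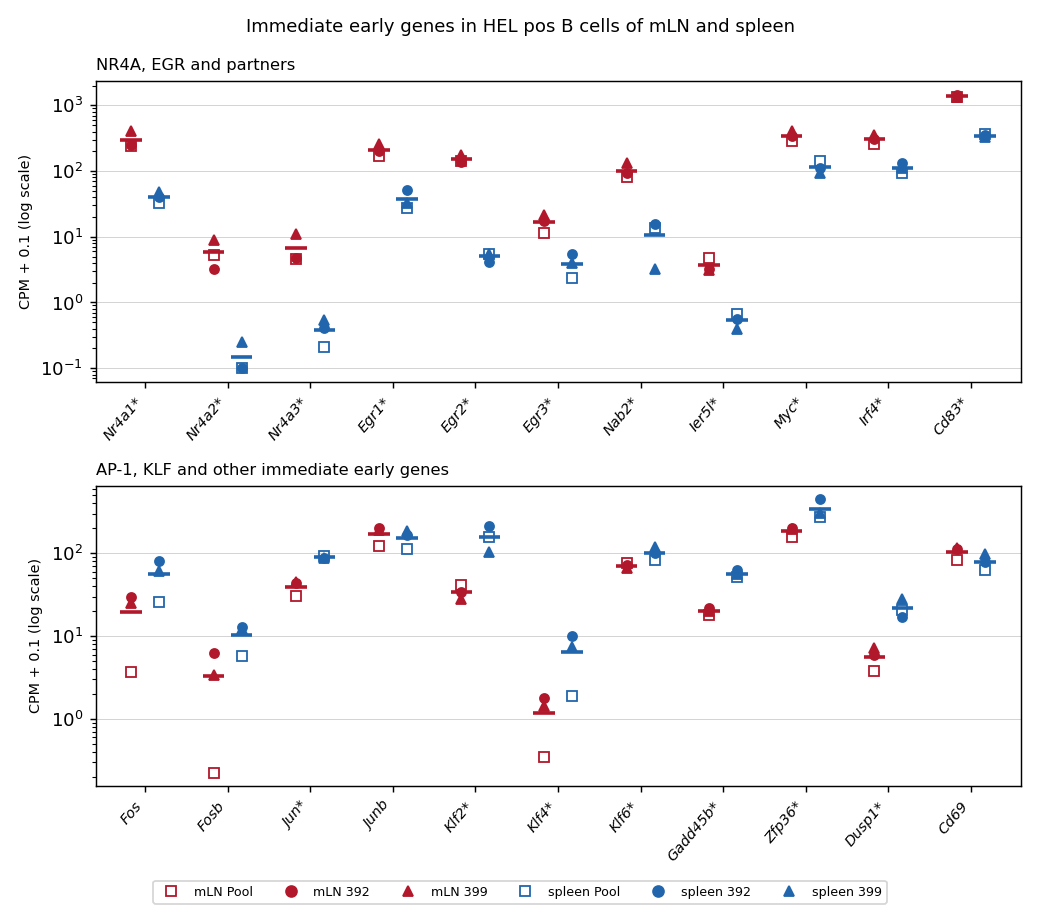
CPM + 0.1 on a log axis in each mLN library (red, left) and each spleen library (blue, right) of HEL pos cells; squares are Pool, circles 392, triangles 399, lines are group means and an asterisk marks a called gene. The mLN values of Nr4a1 (238 to 404 CPM) and Egr2 (137 to 175 CPM) lie above those of spleen, while those of Jun, Klf2 and Dusp1 lie below and those of Fos and Junb overlap.

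Genes that feed back on receptor signals also moved in both directions. Rgs1, a GTPase activator that blunts chemokine receptor signals, was at 40.4, 57.8 and 83.7 CPM in mLN libraries, against 1.01, 1.97 and 0 CPM in spleen libraries, with a log2 fold change of 5.92 ± 0.54 and an adjusted p of 1.1e-07. Its relative Rgs16 had 242 counts over the mLN libraries and 0 over the spleen libraries, so it was at least 70.4-fold higher in mLN against a floor of 3 counts over the spleen group. Dusp4, a nuclear MAP kinase phosphatase, was at 58.2, 40.8 and 38.1 CPM in mLN libraries, against 1.46, 1.36 and 3.69 CPM in spleen libraries. The Dusp4 log2 fold change was 4.41 ± 0.28, with an adjusted p of 1.3e-09. Spry2 (2.78 ± 0.53) and Rgs10 (1.81 ± 0.20) were higher as well. The Ras exchange factors Rasgrp1 (−1.49 ± 0.15) and Rasgrp2 (−2.10 ± 0.17) and the Ras GTPase activator Rasa3 (−1.79 ± 0.17) were lower. Over the feedback list 6 of 28 tested members were called higher and 10 lower, with a median of −0.20, which was −0.46 without mLN 399 and −0.45 without spleen 392. Dusp2, Dusp5 and Dusp6 were not called.

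Of 23 tested inhibitory receptor genes, 6 were called higher and 9 lower. Pdcd1, which encodes PD-1, was at 20.2, 27.4 and 19.3 CPM in mLN libraries, against 0, 0.303 and 0 CPM in spleen libraries, and 582 counts in mLN against 2 in spleen give a ratio of 251 (95% exact counting interval 69.1 to 2074), with an adjusted p of 3.7e-05. Lag3 was at 33.9, 19.1 and 21.7 CPM in mLN libraries, against 1.01, 0.606 and 1.33 CPM in spleen libraries, with a log2 fold change of 4.64 ± 0.80 and an adjusted p of 1.9e-04. Havcr1, which encodes TIM-1, was at 43.1, 71.9 and 55.9 CPM in mLN libraries, against 2.80, 5.76 and 0 CPM in spleen libraries. The Havcr1 log2 fold change was 4.32 ± 0.73, with an adjusted p of 1.5e-04. Cd5, which restrains antigen receptor signals, rose by 2.31 ± 0.38, the PD-1 ligand gene Pdcd1lg2 by 2.05 ± 0.23 and Cd72 by 0.71 ± 0.15. Among the lower members, Cd22, a sialic acid binding receptor, was at 520.4, 531 and 539.9 CPM in mLN libraries, against 1251, 996 and 1218 CPM in spleen libraries, with a log2 fold change of −1.12 ± 0.12 and an adjusted p of 7.4e-07, and Siglecg, Fcgr2b, Ceacam1, Pecam1 and Lilrb3 had log2 fold changes of −1.24 ± 0.11, −0.78 ± 0.12, −1.15 ± 0.14, −1.09 ± 0.14 and −1.90 ± 0.25. Lair1 was at 3.99, 0.798 and 2.13 CPM in mLN libraries, against 22.9, 6.21 and 27.9 CPM in spleen libraries, with a log2 fold change of −3.06 ± 0.68 and an adjusted p of 0.002, and its spleen library 392 lay well below the other spleen libraries.

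Pdcd1, Lag3, Cd5 and the folate receptor family gene Folr4 (36.5, 36.7 and 40.3 CPM in mLN libraries, against 0.896, 3.03 and 0.148 CPM in spleen libraries; log2 fold change 4.82 ± 0.61, adjusted p = 5.7e-06) are also transcribed in T cells, so T cell transcripts are given beside them. The defining T cell genes Cd3e, Cd3d, Cd3g, Cd4 and Cd8a summed to 42.2, 34.4 and 9.98 CPM in mLN libraries, against 4.14, 3.79 and 14.0 CPM in spleen libraries. Cd3e alone was at 9.22, 10.3 and 2.00 CPM in mLN libraries, against 0.112, 0.606 and 0.886 CPM in spleen libraries, with a log2 fold change of 3.77 ± 0.83 and an adjusted p of 0.0018. In mLN 399 the sum was below that of spleen 399, with Cd4 at 0 against 6.20 CPM, while Cd3e, Cd3g and Cd8a were above spleen 399. In that pair of libraries Pdcd1 was at 19.3 CPM against 0, Lag3 21.7 CPM against 1.33, Folr4 40.3 CPM against 0.148 and Cd5 16.9 CPM against 2.51. Over the whole list of T and NK cell markers, 8 of 30 tested members were called higher and 2 lower, and the counts of higher calls without a single library ran down to 4 (without mLN Pool), with 5 without mLN 392, spleen Pool or spleen 392. Its tested members had a median log2 fold change of 1.02, and of −0.96 in BCL2 HEL pos cells. The summed level of the list, in which abundant genes weigh most, was 688, 654 and 512 CPM in mLN and 406, 452 and 497 CPM in spleen libraries. Without Lck, the remaining 37 genes of that list summed to 337, 301 and 199 CPM in mLN and 365, 410 and 476 CPM in spleen libraries. Their part in the results for genes that T cells share was not tested.

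Of the 34 tested antigen receptor signalling genes, 14 were called lower and 6 higher, with a median of −0.29. Cd79b was at 2019.8, 2244 and 2016 CPM in mLN libraries, against 4233, 5389.9 and 5359.8 CPM in spleen libraries, with a log2 fold change of −1.25 ± 0.15 and an adjusted p of 3.1e-06, and its partner Cd79a fell by 0.83 ± 0.12 on the log2 scale. The tyrosine kinase Syk was at 252, 226 and 219 CPM in mLN libraries, against 633, 709.5 and 629.9 CPM in spleen libraries. The Syk log2 fold change was −1.50 ± 0.17, with an adjusted p of 1.2e-06. Lyn (−0.83 ± 0.14), the adaptor Bank1 (−1.49 ± 0.11) and the paracaspase Malt1 (−1.18 ± 0.12) were lower as well. Cr2, the complement receptor of follicular and marginal zone B cells, was at 154, 159 and 188 CPM in mLN libraries, against 1131, 559.9 and 989 CPM in spleen libraries, with a log2 fold change of −2.42 ± 0.19 and an adjusted p of 1.3e-08. Btk was not called (−0.24 ± 0.13, adjusted p = 0.21). In the other direction, the kinase Lck was at 350.5, 354 and 313 CPM in mLN libraries, against 40.8, 41.5 and 20.8 CPM in spleen libraries, with a log2 fold change of 3.30 ± 0.21 and an adjusted p of 1.5e-09, and its level was 354 CPM in mLN 392, with 34.4 CPM of the defining T cell genes, and 313 CPM in mLN 399, with 9.98 CPM of them. Fyn (0.88 ± 0.24) and the exchange factor Vav3 (1.91 ± 0.34) were higher.

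Several of the 15 highest genes by fold change, those called with no overlap of the groups and an average log2 CPM of 3 or more, encode secreted ligands or surface proteins. Ccl4, a chemokine that draws T cells and monocytes, was at 126, 178 and 196 CPM in mLN libraries, against 0.224, 2.12 and 0.148 CPM in spleen libraries (chr11:83662584-83664683, plus strand, mm10). The Ccl4 log2 fold change was 7.73 ± 0.58, with an adjusted p of 9.8e-09. Its neighbour on the chromosome, Ccl3, was at 18.9, 24.9 and 29.5 CPM in mLN libraries, against 0, 0.151 and 1.62 CPM in spleen libraries (chr11:83647844-83649355, minus strand, mm10), with a log2 fold change of 5.43 ± 0.79 and an adjusted p of 2.9e-05. Xcl1, the ligand of the receptor of cross-presenting dendritic cells, had 76 counts in mLN and 0 in spleen libraries, at least 22.1-fold higher against 3 counts over the spleen group. Spp1 (osteopontin) was at 37.3, 29.0 and 26.0 CPM in mLN libraries, against 2.46, 1.51 and 0.295 CPM in spleen libraries. The Spp1 log2 fold change was 4.37 ± 0.72, with an adjusted p of 1.1e-04. Grn, which encodes progranulin, was at 843, 856 and 708 CPM in mLN libraries, against 220.0, 208 and 177 CPM in spleen libraries, with a log2 fold change of 1.99 ± 0.19 and an adjusted p of 2.0e-07. All 3 mLN libraries exceeded all spleen libraries for Xcl1 and Grn too, while Ccl4, Ccl3 and Spp1 were chosen on that condition. Of 21 tested ligand genes, 7 were called higher and 4 lower. Il12a (−1.51 ± 0.21) and Il16 (−0.92 ± 0.15) were among the lower ones.

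Among TNF family and costimulatory genes, Tnfsf4, which encodes OX40 ligand, was at 26.9, 29.1 and 27.9 CPM in mLN libraries, against 0.336, 0 and 0 CPM in spleen libraries. Its 718 counts in mLN against 3 in spleen give a ratio of 206 (95% exact counting interval 70.2 to 1002), with an adjusted p of 3.3e-07. Lymphotoxin beta, which B cells display to build follicles, went the other way, with Ltb at 491, 412 and 338 CPM in mLN libraries, against 1346, 1235 and 1555 CPM in spleen libraries and a log2 fold change of −1.74 ± 0.16 and an adjusted p of 1.6e-07. Lta (−1.57 ± 0.23), Cd40 (−1.27 ± 0.16), the ICOS ligand gene Icosl (−1.45 ± 0.16) and the BAFF receptor gene Tnfrsf13c (−0.69 ± 0.12) were lower too. Cd86 was not called (−0.13 ± 0.20, adjusted p = 0.70).

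Axl, a TAM family receptor tyrosine kinase for ligands bound to phosphatidylserine, stood second among these 15 genes. It was at 212, 228 and 193 CPM in mLN libraries, against 1.34, 1.21 and 0.738 CPM in spleen libraries (chr7:25757273-25788705, minus strand, mm10), with a log2 fold change of 7.54 ± 0.37 and an adjusted p of 4.1e-11, and no spleen library exceeded 1.34 CPM. The tetraspanin gene Cd63, a marker of late endosomes, was at 39.2, 47.0 and 51.2 CPM in mLN libraries, against 0.224, 0 and 0.738 CPM in spleen libraries. The Cd63 log2 fold change was 7.11 ± 0.49, with an adjusted p of 2.5e-09. Jup, which encodes plakoglobin, was at 28.5, 56.4 and 46.4 CPM in mLN libraries, against 1.12, 1.67 and 0.295 CPM in spleen libraries, with a log2 fold change of 5.39 ± 0.53 and an adjusted p of 2.6e-07. Mreg (melanoregulin) was at 319.9, 343 and 329 CPM in mLN libraries, against 14.9, 21.4 and 12.8 CPM in spleen libraries. The Mreg log2 fold change was 4.34 ± 0.24, with an adjusted p of 2.0e-10. Nrgn (neurogranin, a calmodulin binding protein) and Fam46c (a poly(A) polymerase) complete this set, with log2 fold changes of 4.89 ± 0.40 and 4.81 ± 0.51.

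Homing and egress genes were lower in mLN more often than higher. Over the chemoattractant receptor list, 13 of 33 tested members were called lower and 6 higher, with a median of −0.85. Ccr9, the receptor for the chemokine CCL25 of the small intestine, was at 24.0, 31.8 and 24.5 CPM in mLN libraries, against 1.46, 4.39 and 3.69 CPM in spleen libraries, with a log2 fold change of 3.10 ± 0.47 and an adjusted p of 4.8e-05. The sphingosine phosphate receptor gene S1pr1, needed to leave lymphoid tissue, fell to 219, 181 and 209 CPM in mLN libraries, against 605, 525 and 579.9 CPM in spleen libraries, with a log2 fold change of −1.49 ± 0.14 and an adjusted p of 2.5e-07. S1pr4 (−1.16 ± 0.14) and the follicle homing receptor gene Cxcr5 (−1.48 ± 0.15) were lower, as was S1pr3 at 31.6, 21.3 and 27.7 CPM in mLN libraries, against 133, 43.9 and 108 CPM in spleen libraries (−1.83 ± 0.33, adjusted p = 2.8e-04). Cxcr7, a scavenger of CXCL12 carried by marginal zone B cells, was at 0.748, 0.699 and 0 CPM in mLN libraries, against 51.4, 9.09 and 44.3 CPM in spleen libraries. The Cxcr7 log2 fold change was −6.08 ± 0.94, with an adjusted p of 6.1e-05. Ffar2, a receptor for short chain fatty acids, was at 6.98, 3.59 and 9.18 CPM in mLN libraries, against 51.5, 11.4 and 57.7 CPM in spleen libraries, with a log2 fold change of −2.62 ± 0.57 and an adjusted p of 0.0015. Cxcr4 and Ccr6 were not called (0.21 ± 0.32 and 0.13 ± 0.22). Ccr7 was called higher (0.81 ± 0.23), and the call was lost without spleen Pool (adjusted p = 0.0554). Spleen 392 was the lowest spleen library for S1pr3, Cxcr7 and Ffar2, and its values remained above all mLN values.

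Adhesion genes of the gut homing integrins moved apart. Itgae, which encodes the alpha E chain that binds E-cadherin, was at 16.3, 12.5 and 18.4 CPM in mLN libraries, against 0.784, 0.303 and 1.62 CPM in spleen libraries. The Itgae log2 fold change was 4.10 ± 0.85, with an adjusted p of 0.0011. Its partner Itgb7 was lower, at 87.0, 111 and 78.3 CPM in mLN libraries, against 265, 303 and 334 CPM in spleen libraries, with a log2 fold change of −1.71 ± 0.15 and an adjusted p of 8.2e-08, and the alpha 4 chain gene Itga4 was lower as well (−1.18 ± 0.12). Itgb1 (0.81 ± 0.15) and Alcam (2.10 ± 0.27) were higher. The neuropilins were opposite, with Nrp1 at 8.47, 14.2 and 11.7 CPM in mLN libraries, against 0.560, 0.606 and 0.590 CPM in spleen libraries (4.26 ± 0.78, adjusted p = 3.5e-04) and Nrp2 at 1.74, 0.200 and 0.399 CPM in mLN libraries, against 25.4, 6.66 and 15.8 CPM in spleen libraries (−4.36 ± 0.80, adjusted p = 3.2e-04). Sema7a was lower (−2.64 ± 0.60). Over the list, 8 of 37 tested adhesion genes were called higher and 13 lower.

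**Figure D2:**
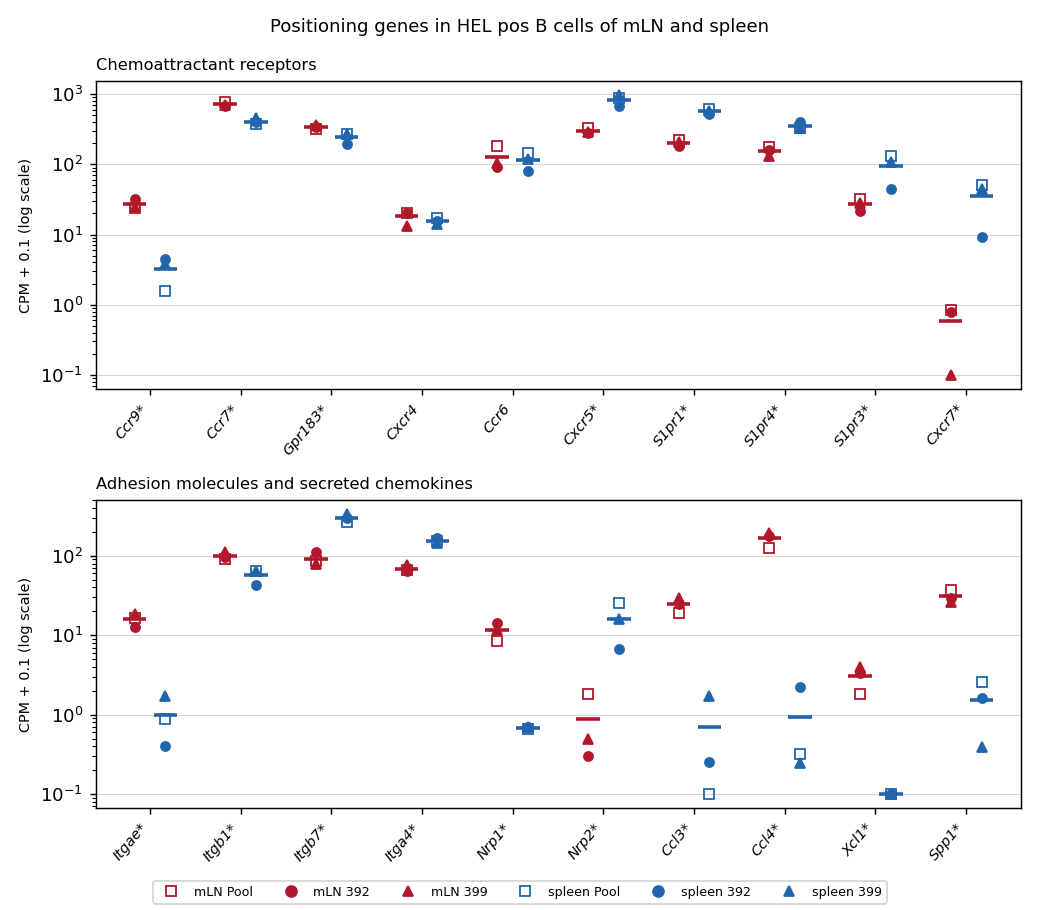
CPM + 0.1 on a log axis of receptor, adhesion and chemokine genes in each mLN library (red, left) and spleen library (blue, right) of HEL pos cells, with the symbols of the plot of immediate early genes. Ccr9, Itgae, Nrp1, Ccl3 and Ccl4 lie higher in mLN, and S1pr1, Cxcr5, Cxcr7 and Itgb7 lower, while Cxcr4 and Ccr6 overlap.

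Markers of both resting B cell subsets were lower in mLN. Of 24 tested marginal zone genes, 16 were called lower and 2 higher, with a median of −1.19. Of 18 tested follicular genes, 12 were called lower and 1 higher (a call lost without spleen Pool), with a median of −0.89. Cd1d1, the lipid presenting molecule abundant on marginal zone B cells, was at 17.2, 14.5 and 15.3 CPM in mLN libraries, against 90.1, 54.5 and 81.3 CPM in spleen libraries. The Cd1d1 log2 fold change was −2.27 ± 0.18, with an adjusted p of 2.2e-08. Cd55, the complement regulator of the follicular list, was at 99.9, 87.5 and 71.7 CPM in mLN libraries, against 258, 285 and 319 CPM in spleen libraries, with a log2 fold change of −1.73 ± 0.14 and an adjusted p of 2.7e-08. General B cell markers fell too, with 15 of 20 called lower, 2 higher and a median of −0.98. Ms4a1 (CD20) was at 1459, 1729 and 1526 CPM in mLN libraries, against 4238, 4437 and 4678 CPM in spleen libraries. The Ms4a1 log2 fold change was −1.50 ± 0.13, with an adjusted p of 3.7e-08. Cd24a, high on immature cells, was at 257, 369 and 266 CPM in mLN libraries, against 957, 1637 and 1255 CPM in spleen libraries, with a log2 fold change of −2.11 ± 0.27 and an adjusted p of 6.8e-06. Faim3, the Fc receptor for IgM, was an exception at 2949, 3073 and 2975 CPM in mLN libraries, against 1275, 1353 and 1079.8 CPM in spleen libraries. The Faim3 log2 fold change was 1.28 ± 0.15, with an adjusted p of 2.5e-06. Fcer2a (−0.43 ± 0.14) was called lower, and that call was lost without some single libraries (adjusted p up to 0.217).

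The Notch pathway instructs the marginal zone fate. Its receptor gene Notch2 was at 101, 119 and 118 CPM in mLN libraries, against 298, 319 and 276 CPM in spleen libraries, with a log2 fold change of −1.40 ± 0.15 and an adjusted p of 1.1e-06. Its target Hes1 was at 21.7, 18.7 and 16.2 CPM in mLN libraries, against 97.3, 111 and 112 CPM in spleen libraries. The Hes1 log2 fold change was −2.50 ± 0.17, with an adjusted p of 2.2e-09. Dtx1 was at 81.0, 68.0 and 83.2 CPM in mLN libraries, against 328, 146 and 252 CPM in spleen libraries, with a log2 fold change of −1.65 ± 0.23 and an adjusted p of 1.5e-05, and its spleen library 392 lay nearest to mLN. Asb2, a ubiquitin ligase subunit and Notch target, was at 1.50, 0.299 and 0.266 CPM in mLN libraries, against 84.6, 17.1 and 33.5 CPM in spleen libraries, with a log2 fold change of −6.04 ± 0.74 and an adjusted p of 3.9e-06. Against these, the DNA binding partner of Notch, Rbpj, was higher at 80.1, 65.5 and 74.4 CPM in mLN libraries, against 32.9, 30.6 and 32.5 CPM in spleen libraries, with a log2 fold change of 1.19 ± 0.13 and an adjusted p of 1.0e-06, and so was Dtx4 (2.48 ± 0.40). Of 27 tested members 8 were called lower and 2 higher, with a median of −0.08, so most of the pathway was not called. That median was −0.36 without mLN Pool, −0.36 without spleen 392 and −0.16 without spleen 399, and 4 members were called higher without mLN Pool.

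Transcription factors of B cell identity were largely lower, with 19 of 35 tested called lower, 7 higher and a median of −0.60. Pax5 was at 67.7, 58.5 and 63.6 CPM in mLN libraries, against 150.1, 143 and 135 CPM in spleen libraries. The Pax5 log2 fold change was −1.17 ± 0.14, with an adjusted p of 3.9e-06. Ebf1 was at 102, 103 and 98.8 CPM in mLN libraries, against 230.4, 213 and 224 CPM in spleen libraries, with a log2 fold change of −1.13 ± 0.11 and an adjusted p of 3.5e-07. Ets1 (−1.50 ± 0.20), the PU.1 gene Sfpi1 (−1.22 ± 0.12), Spib (−1.17 ± 0.15), Bcl6 (−1.04 ± 0.16) and Foxo1 (−0.73 ± 0.19) were lower, and Bach2 was not called (0.29 ± 0.15, adjusted p = 0.16). Ahr, the aryl hydrocarbon receptor that senses dietary and microbial ligands, was higher at 128, 99.8 and 152 CPM in mLN libraries, against 11.8, 14.8 and 7.53 CPM in spleen libraries. The Ahr log2 fold change was 3.48 ± 0.31, with an adjusted p of 7.2e-08. The AP-1 family gene Batf was at 175, 137 and 131 CPM in mLN libraries, against 39.9, 32.0 and 31.7 CPM in spleen libraries, with a log2 fold change of 2.09 ± 0.17 and an adjusted p of 1.6e-08. Lef1 was higher as well (1.45 ± 0.36). The plasma cell list had 6 of 23 tested members higher and 4 lower. Sdc1 (CD138) was at 46.0, 44.1 and 46.0 CPM in mLN libraries, against 7.84, 11.1 and 6.49 CPM in spleen libraries, with a log2 fold change of 2.42 ± 0.30 and an adjusted p of 4.3e-06, whereas the plasma cell factor Prdm1 was not called (4.36, 1.20 and 3.59 CPM in mLN libraries, against 3.81, 2.57 and 1.33 CPM in spleen libraries) and the J chain gene Igj was lower at 7.23, 6.59 and 2.40 CPM in mLN libraries, against 58.5, 23.8 and 156 CPM in spleen libraries (−3.85 ± 0.68, adjusted p = 2.2e-04).

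Of 23 tested Toll-like receptor and adaptor genes 11 were called lower and the others were not called, with a median of −0.49. Tlr3 was at 1.25, 0.798 and 1.46 CPM in mLN libraries, against 31.9, 5.00 and 14.9 CPM in spleen libraries. The Tlr3 log2 fold change was −3.89 ± 0.68, with an adjusted p of 2.2e-04. Tlr1 (−1.02 ± 0.14), Tlr4 (−0.74 ± 0.19), its coreceptor Ly96 (−1.39 ± 0.24) and the inhibitor Irak3 (−1.39 ± 0.19) were lower, while Tlr7, Tlr9 and Myd88 were not called. The cytosolic sensor genes Nod1 and Ifih1 were opposite. Nod1 was at 1.74, 2.30 and 0 CPM in mLN libraries, against 21.4, 4.69 and 27.3 CPM in spleen libraries, with a log2 fold change of −3.66 ± 0.71 and an adjusted p of 5.9e-04. Ifih1, a sensor of viral RNA, was at 16.7, 15.3 and 23.8 CPM in mLN libraries, against 6.16, 5.15 and 5.46 CPM in spleen libraries, with a log2 fold change of 1.73 ± 0.50 and an adjusted p of 0.014, and its call was lost without mLN 399 or spleen 392 (adjusted p up to 0.0687). Interferon-stimulated genes held no common direction, with 6 of 46 tested called higher and 5 lower, and the 6 became 1 without mLN 399, 2 without spleen 392 and 3 without spleen 399. Ifitm2 was the member with the smallest p, at 39.4, 55.2 and 60.3 CPM in mLN libraries, against 1.79, 3.79 and 3.25 CPM in spleen libraries and a log2 fold change of 4.15 ± 0.46 and an adjusted p of 1.2e-06.

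Among antigen presentation genes, H2-Aa, H2-Ab1 and H2-Eb1 had log2 fold changes of 0.21 ± 0.14, 0.02 ± 0.15 and −0.02 ± 0.13 and were not called. Ifi30, the lysosomal thiol reductase that unfolds antigen, fell to 254, 338 and 281 CPM in mLN libraries, against 1263, 1559 and 1575 CPM in spleen libraries. The Ifi30 log2 fold change was −2.33 ± 0.19, with an adjusted p of 2.5e-08. Of the interferon-inducible proteasome subunits, Psmb10 was lower (−0.83 ± 0.15, adjusted p = 3.1e-04), Psmb9 was slightly lower (−0.40 ± 0.10, adjusted p = 0.0073) and Psmb8 was not called (−0.20 ± 0.11, adjusted p = 0.19). Their constitutive counterparts Psmb5 (0.50 ± 0.11), Psmb6 (0.38 ± 0.13) and Psmb7 (0.47 ± 0.13) were higher, and the last pair lost their calls without some single libraries (adjusted p up to 0.195 and 0.0940).

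Of 35 tested proteasome genes, which the list names without the inducible catalytic subunits, 28 were called higher, with a median of 0.50. That count was 15 without mLN 392, 16 without spleen Pool and 17 without mLN 399. Psmd1 was at 182, 194 and 202 CPM in mLN libraries, against 118, 109 and 89.9 CPM in spleen libraries, with a log2 fold change of 0.87 ± 0.12 and an adjusted p of 2.0e-05. Chaperone genes had 16 of 35 higher, with a median of 0.66. Hspa9, a mitochondrial chaperone, was at 416, 436 and 467 CPM in mLN libraries, against 205, 186 and 178 CPM in spleen libraries, with a log2 fold change of 1.21 ± 0.14 and an adjusted p of 1.3e-06, and Hspd1, Hspe1 and Hsp90ab1 had log2 fold changes of 1.59 ± 0.32, 1.30 ± 0.25 and 1.26 ± 0.24. The stress-inducible Hspa1a and Hspa1b were not called. Of 77 tested ribosomal protein genes 6 were called higher, and 3 without mLN 392, mLN 399 or spleen Pool, with a median of 0.27 that was 0.07 without spleen Pool.

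Endoplasmic reticulum genes had 22 of 52 members higher and 1 lower, with a median of 0.33. The chaperones Hspa5 (0.96 ± 0.20), Hsp90b1 (0.94 ± 0.21) and Calr (1.06 ± 0.15) and the disulfide isomerase Pdia6 (1.16 ± 0.19) rose by similar amounts. Derl3, a part of the degradation machinery, was at 65.3, 54.2 and 66.4 CPM in mLN libraries, against 12.0, 14.7 and 13.1 CPM in spleen libraries. The Derl3 log2 fold change was 2.22 ± 0.27, with an adjusted p of 3.3e-06. The member called lower was the oxidase Ero1lb, at 98.4, 102 and 111 CPM in mLN libraries, against 201, 221 and 236 CPM in spleen libraries (−1.08 ± 0.11), and the lower calls were 3 without mLN Pool and 2 without spleen 399. Amino acid and one-carbon genes had 18 of 34 higher and 1 lower, with a median of 0.75. The serine hydroxymethyltransferase gene Shmt1 was at 78.5, 114 and 93.0 CPM in mLN libraries, against 17.7, 28.5 and 13.1 CPM in spleen libraries, with a log2 fold change of 2.27 ± 0.23 and an adjusted p of 5.1e-07, and Shmt2 (1.03 ± 0.13), Phgdh (0.96 ± 0.12), Psat1 (1.25 ± 0.23) and Gpt2 (2.54 ± 0.38) were higher as well. Atf4 itself was not called (0.30 ± 0.21, adjusted p = 0.32).

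Energy genes shifted modestly. Respiratory chain genes had 35 of 75 higher, with a median of 0.42, and the count was 13 without mLN 392, 15 without spleen Pool, 18 without mLN 399 and 21 without spleen 392. Atp5b, a subunit of ATP synthase, was at 1874, 2172 and 2001 CPM in mLN libraries, against 1238, 1243 and 1277 CPM in spleen libraries, with a log2 fold change of 0.69 ± 0.11 and an adjusted p of 1.1e-04. Glycolysis and hypoxia genes had 11 of 33 higher and 3 lower (1 without spleen 399). The phosphofructokinase gene Pfkp was at 304, 279 and 236 CPM in mLN libraries, against 70.5, 43.2 and 44.1 CPM in spleen libraries. The Pfkp log2 fold change was 2.37 ± 0.22, with an adjusted p of 1.7e-07. Ldha (0.92 ± 0.14), Pgk1 (0.82 ± 0.14), Pgam1 (0.90 ± 0.12) and the lactate transporter Slc16a1 (2.05 ± 0.30) were higher, while the glucose transporter Slc2a1 was lower (−0.70 ± 0.17). Scd1, a fatty acid desaturase, was lower at 310.0, 374 and 316 CPM in mLN libraries, against 988, 893 and 932 CPM in spleen libraries, with a log2 fold change of −1.49 ± 0.14 and an adjusted p of 1.3e-07.

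**Figure D3:**
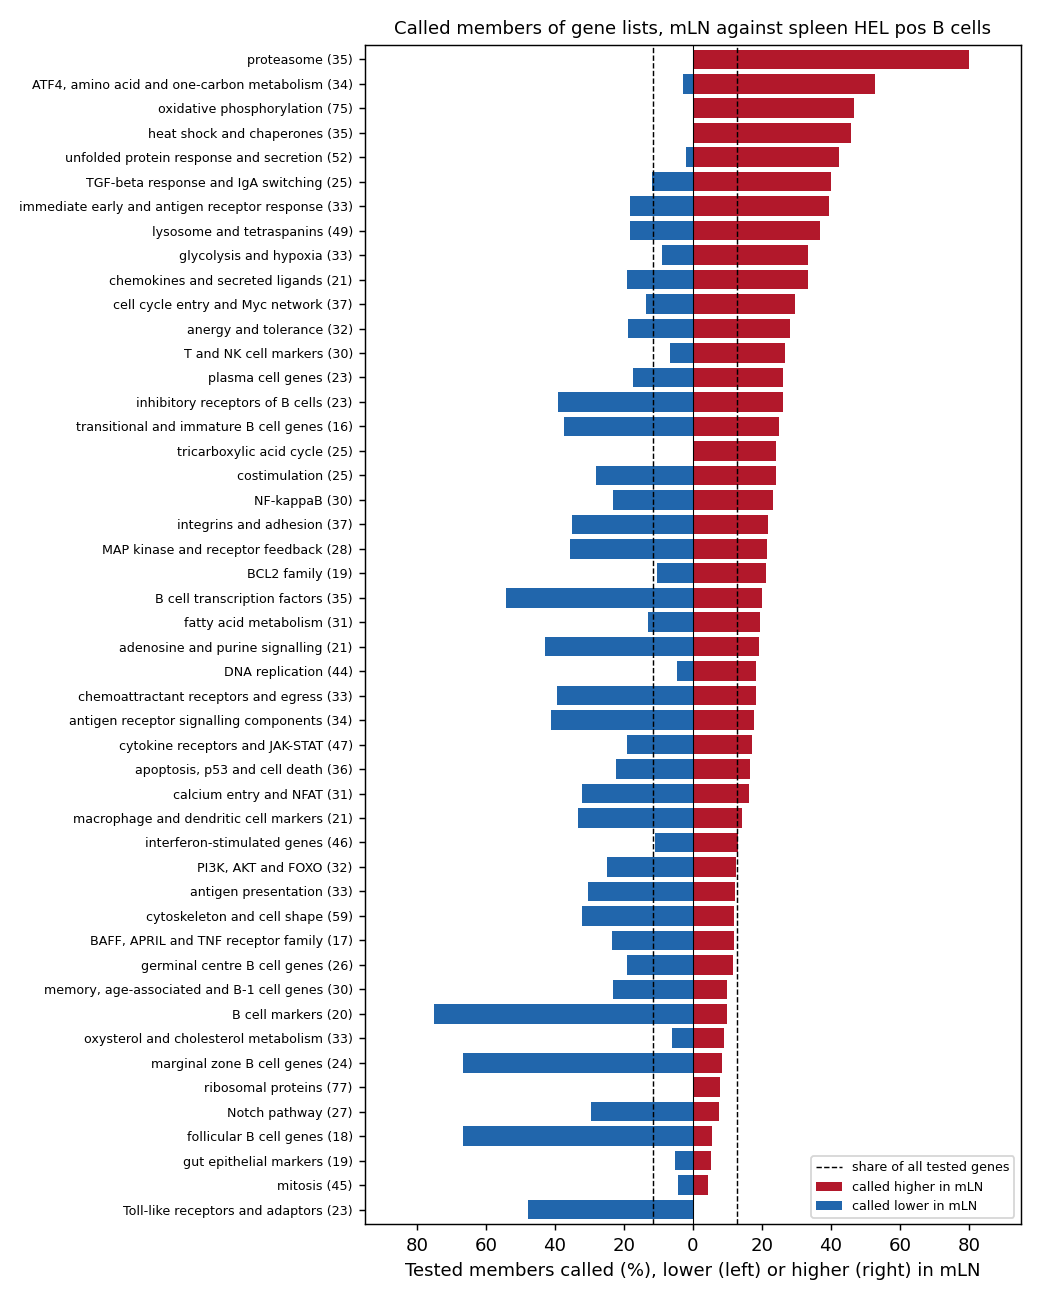
Share of tested members of each gene list (number tested in brackets) called higher (red, right) or lower (blue, left) in mLN than in spleen HEL pos cells; dashed lines are the shares over all 11419 genes tested (12.9% and 11.5%). The proteasome list reaches furthest to the right, with 28 of 35 higher, and the B cell marker list furthest to the left, with 15 of 20 lower.

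The Myc network list had 11 of 37 tested members higher and 5 lower. Cdk4 was at 399, 445 and 425 CPM in mLN libraries, against 167, 182 and 178 CPM in spleen libraries. The Cdk4 log2 fold change was 1.27 ± 0.11, with an adjusted p of 7.6e-08. The nucleolar genes Ncl (1.36 ± 0.15), Nolc1 (1.29 ± 0.16) and Npm1 (1.17 ± 0.14) were higher, while E2f2 was lower at 20.8, 27.8 and 20.2 CPM in mLN libraries, against 126, 140.1 and 105 CPM in spleen libraries, with a log2 fold change of −2.43 ± 0.27 and an adjusted p of 1.3e-06, and Ccnd3 was lower as well (−0.96 ± 0.19). The proliferation markers Mki67 (2.62, 4.09 and 4.66 CPM in mLN libraries, against 7.73, 5.60 and 3.39 CPM in spleen libraries) and Top2a (20.6, 20.7 and 11.7 CPM in mLN libraries, against 25.9, 15.4 and 12.3 CPM in spleen libraries) were not called. Replication genes had 8 of 44 higher, 2 lower and 34 not called, beside 12.9% higher and 11.5% lower over all genes tested. Mcm5 (0.81 ± 0.13) and Mcm6 (0.84 ± 0.14) were among the higher ones, Pold1 was lower and Mcm4 was not called.

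Of 19 tested BCL2 family genes, 4 were called higher and 2 lower. Bcl2l11, which encodes the death-promoting BIM, was at 189, 175 and 201 CPM in mLN libraries, against 54.0, 42.1 and 39.7 CPM in spleen libraries, with a log2 fold change of 2.05 ± 0.21 and an adjusted p of 4.8e-07. The protective Bcl2a1d was at 34.9, 45.0 and 39.3 CPM in mLN libraries, against 4.26, 8.94 and 3.39 CPM in spleen libraries, with a log2 fold change of 2.86 ± 0.28 and an adjusted p of 3.2e-07, and Bcl2a1b (2.06 ± 0.24) and Bcl2l1 (1.38 ± 0.25) were higher too. The lower members were the death-promoting Bid (−0.63 ± 0.17) and Bad (−0.58 ± 0.20). The call of Bad was lost without each single library but mLN Pool and that of Bid without spleen Pool (adjusted p up to 0.144 and 0.0658). The Bcl2a1 genes are near-identical copies, so the split of reads between them is uncertain. Bcl2 itself was at 99.3, 50.7 and 65.7 CPM in mLN libraries, against 88.0, 51.2 and 67.5 CPM in spleen libraries, a log2 fold change of 0.06 ± 0.23 (adjusted p = 0.89), and the groups overlapped. Casp4 was higher (2.16 ± 0.22) and Cdkn1a lower (−1.74 ± 0.36).

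Of 49 tested lysosome and tetraspanin genes, 18 were called higher and 9 lower. The enzyme genes Ctsb (1.07 ± 0.17) and Hexa (1.07 ± 0.16) were higher. The enzyme genes Ctse and Neu1 and the tetraspanin genes Cd37, Cd53, Cd81, Cd82, Tspan13 and Tspan32 were lower. Cytoskeleton genes had 19 of 59 lower and 7 higher. All 5 called tubulin genes were higher, with Tuba1b at 318, 366 and 357 CPM in mLN libraries, against 125, 112 and 95.3 CPM in spleen libraries and a log2 fold change of 1.65 ± 0.13 and an adjusted p of 1.4e-08, whereas vimentin (Vim) was lower at 78.9, 99.3 and 73.3 CPM in mLN libraries, against 211, 363 and 328 CPM in spleen libraries. The Vim log2 fold change was −1.84 ± 0.24, with an adjusted p of 6.5e-06.

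Of 47 tested cytokine receptor and JAK-STAT genes, 8 were called higher (5 without mLN 399 or spleen 399) and 9 lower, with a median of 0.05 that was 0.13 without spleen Pool. Il9r was at 7.23, 1.80 and 3.59 CPM in mLN libraries, against 107, 19.5 and 65.7 CPM in spleen libraries, with a log2 fold change of −3.95 ± 0.60 and an adjusted p of 4.5e-05. Lifr was at 9.22, 5.49 and 4.79 CPM in mLN libraries, against 72.5, 56.5 and 47.7 CPM in spleen libraries. The Lifr log2 fold change was −3.18 ± 0.33, with an adjusted p of 4.6e-07. Il5ra (−1.85 ± 0.29), Il10ra (−1.41 ± 0.21) and Il17ra (−0.90 ± 0.13) were lower, and Il2rg and Il21r were not called. Il2ra (1.52 ± 0.45) and Il1r1 (3.75 ± 1.08) were called higher, and each lost its call without some single libraries (adjusted p up to 0.0878 and 0.0641). Of the TGF-beta pathway, which directs IgA switching in gut tissue, Tgfbr2 was higher at 660.3, 664 and 637 CPM in mLN libraries, against 381, 345 and 321 CPM in spleen libraries, with a log2 fold change of 0.90 ± 0.13 and an adjusted p of 1.9e-05, as were Smad3 (1.13 ± 0.22) and Tgif1 (1.17 ± 0.21). That list had 10 of 25 tested members higher and 3 lower, with a median of −0.06 that was 0.20 without spleen 399. Ahr, Ccr9 and Itgae, given above, are among its higher members. Cyp39a1, an oxysterol hydroxylase, was at 3.99, 3.19 and 2.40 CPM in mLN libraries, against 49.6, 25.4 and 53.1 CPM in spleen libraries, with a log2 fold change of −3.73 ± 0.35 and an adjusted p of 1.9e-07.

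Some of the lowest values belong to genes of other blood cells. S100a8, a granulocyte protein, was at 0.125, 0 and 0 CPM in mLN libraries, against 16.5, 26.7 and 104 CPM in spleen libraries, and the haemoglobin gene Beta-s at 2.62, 0 and 0 CPM in mLN libraries, against 35.2, 83.9 and 42.2 CPM in spleen libraries. The granulocyte genes S100a8, S100a9, Ngp and Camp summed to 0.249, 0.200 and 0 CPM in mLN libraries, against 41.8, 53.2 and 182 CPM in spleen libraries, and 4 of the 8 tested granulocyte markers were called lower (7 without mLN Pool, and 7 without mLN 399). Beta-s and Alas2 summed to 3.36, 0.299 and 0 CPM in mLN and 39.2, 87.1 and 48.6 CPM in spleen libraries, with Hba-a1 at 0 in all 6. The macrophage genes Csf1r, Lyz2, Emr1 and C1qa summed to 9.47, 1.90 and 1.20 CPM in mLN and 32.7, 15.3 and 37.2 CPM in spleen libraries. The plasma cell genes Sdc1, Prdm1 and Igj summed to 57.6, 51.9 and 52.0 CPM in mLN and 70.1, 37.4 and 164 CPM in spleen libraries. The epithelial genes Epcam, Krt8, Fabp2 and Apoa1 summed to 26.8, 33.8 and 35.7 CPM in mLN and 22.6, 3.33 and 12.0 CPM in spleen libraries, with Krt8 and Apoa1 at 0 in all mLN libraries. The part of these other cell types in the results for shared genes such as Lyz2 and Igj was not tested.

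The same comparison was made in BCL2 HEL pos cells, whose 6 libraries share none with the comparison above. There 659 genes were called higher in mLN (5.77%) and 483 lower (4.23%). Single libraries mattered for these counts: the higher calls were 350 without mLN 926, 379 without spleen 926 and 439 without spleen 922, and the lower calls 211 without mLN 926, 293 without spleen 950, 300 without spleen 926 and 321 without mLN 950. Of the 1476 genes higher in HEL pos cells, 553 (37.5%) were also higher in BCL2 HEL pos cells, which is 83.9% of the 659. Of the 1318 lower genes 410 (31.1%) were also lower in BCL2 HEL pos cells, 84.9% of the 483. The median log2 fold change of the genes higher in HEL pos cells was 0.79 there and 0.46 in BCL2 HEL pos cells, and that of the lower genes was −0.90 and −0.47. These genes were chosen by their HEL pos values, which favours larger medians in HEL pos cells, so the medians do not compare the size of the tissue effect.

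Nr4a1, Egr2 and Axl were higher in mLN of BCL2 HEL pos cells too, by 2.23 ± 0.30, 3.63 ± 0.33 and 4.85 ± 0.31 on the log2 scale. Ccl4 (4.19 ± 0.52), Ahr (3.04 ± 0.32), Ccr9 (2.74 ± 0.52) and Lck (2.29 ± 0.21) were called as well, as were the lower genes Cxcr7 (−6.04 ± 1.24), Il9r (−2.35 ± 0.56) and Ms4a1 (−0.56 ± 0.12). The difference between the 2 kinds of cells was called for 44 genes (0.385%), 19 positive and 25 negative. That count rests on few libraries: it was 16 without mLN 392, 7 without mLN 399, 15 without spleen Pool, 10 without spleen 399, and 2, 5, 23, 4 and 15 without the BCL2 HEL pos libraries mLN 922, mLN 950, spleen 922, spleen 926 and spleen 950. Among the called were Axl (difference 2.69 ± 0.52, adjusted p = 0.024), Jup (3.89 ± 0.75), Folr4 (3.99 ± 0.83), Dusp4 (2.04 ± 0.37), Hes1 (−1.83 ± 0.23) and Tagap (2.01 ± 0.30). Pdcd1 averaged 1.38 ± 1.53 CPM in mLN and 1.26 ± 1.54 CPM in spleen BCL2 HEL pos cells (SD, n = 3 each), a log2 fold change of 0.20 ± 0.88 (adjusted p = 0.93), and its difference between kinds was 7.50 ± 1.51 (adjusted p = 0.028). Cd3e, the T cell marker, had a difference of the same sign (5.88 ± 1.15, adjusted p = 0.024), and the part of T cell transcripts in these differences was not tested.

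**Figure D4:**
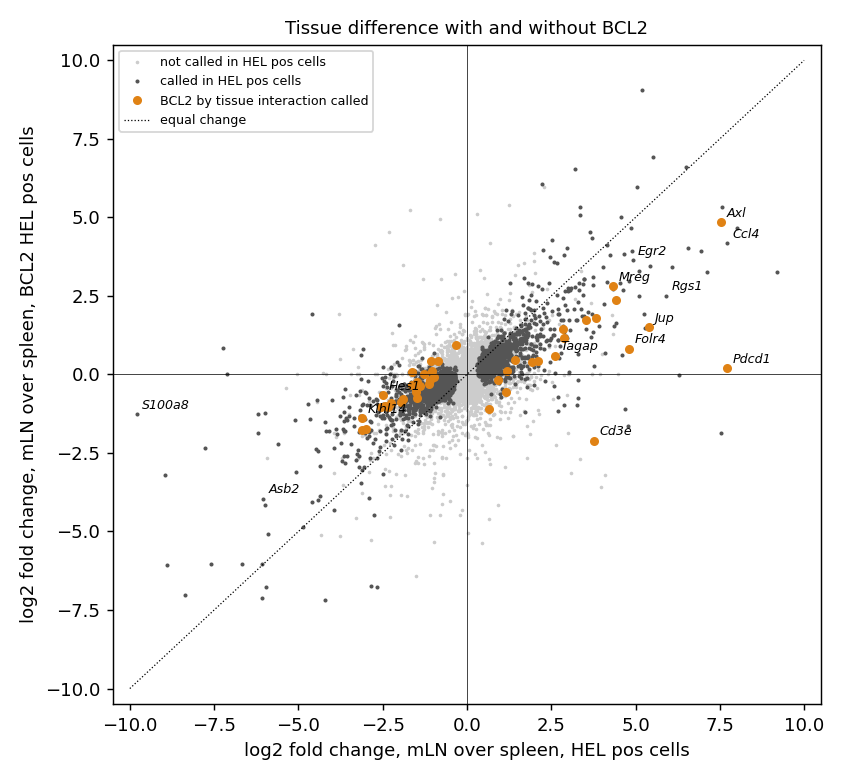
Each point is 1 of 11419 genes, with its log2 fold change of mLN over spleen in HEL pos cells on the x axis and in BCL2 HEL pos cells on the y axis; orange marks the 44 genes whose difference between the kinds was called. Most called genes have the same sign on both axes, Axl lies high on both, and Pdcd1 and Cd3e are high on the x axis only.

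In HEL neg cells the tissue difference rests on 1 pooled library of each tissue, assumed to vary like the other groups. Over the 1476 genes higher in mLN of HEL pos cells, the median log2 difference in HEL neg cells was 0.07, and over the 1318 lower genes it was −0.07. The choice of these genes by HEL pos values favours smaller medians in other cells. The difference between HEL pos and HEL neg cells was called for 422 genes (3.7%), 202 positive and 220 negative, and that count was 252 without mLN 399. Among the 15 highest genes it was called for 12, and among the 15 lowest for 6. Those genes were chosen by their HEL pos fold change, which is part of this difference, so the choice itself favoured such calls. Ccl4 was at 0.640 CPM in HEL neg cells of mLN, against 3.96 CPM in those of spleen, a difference between the kinds of 10.30 ± 1.40 (adjusted p = 3.5e-04). Axl was at 2.40 CPM in HEL neg cells of mLN, against 2.19 CPM in those of spleen, with a difference of 7.39 ± 1.00 (adjusted p = 3.5e-04). Nr4a1 was at 43.0 CPM in HEL neg cells of mLN, against 48.4 CPM in those of spleen, with a difference of 3.05 ± 0.59 (adjusted p = 0.0067). Klf2 was at 209 CPM in HEL neg cells of mLN, against 83.5 CPM in those of spleen, with a difference of −3.54 ± 0.57 (adjusted p = 0.0016).

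The resting subset lists had medians of opposite sign in HEL neg cells, where each rests on 1 pooled library of each tissue. The follicular list had a median log2 difference of 0.33 in HEL neg cells, with 11 of its 18 tested members called for the difference between kinds, among them Cd55 (−2.13 ± 0.28) and Itgb7 (−2.01 ± 0.30). The marginal zone list had a median of −0.85 in HEL neg cells, with 7 of 24 called. The general B cell marker list had a median of −0.04 there, with 10 of 20 called. Over all genes tested, 3.7% were called for that difference. Notch2 was at 242 CPM in HEL neg cells of mLN, against 411 CPM in those of spleen. Cxcr7 was at 1.28 CPM in HEL neg cells of mLN, against 35.1 CPM in those of spleen. Asb2 was at 5.60 CPM in HEL neg cells of mLN, against 49.2 CPM in those of spleen. For these 3 genes, of which Cxcr7 is not in the marginal zone list, the difference between the kinds was not called. It was called for Hes1 of that list (−1.79 ± 0.32, adjusted p = 0.0036). Proteasome, respiratory chain and ribosomal protein lists had medians of 0.24, 0.23 and 0.03 in HEL neg cells.

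**Figure D5:**
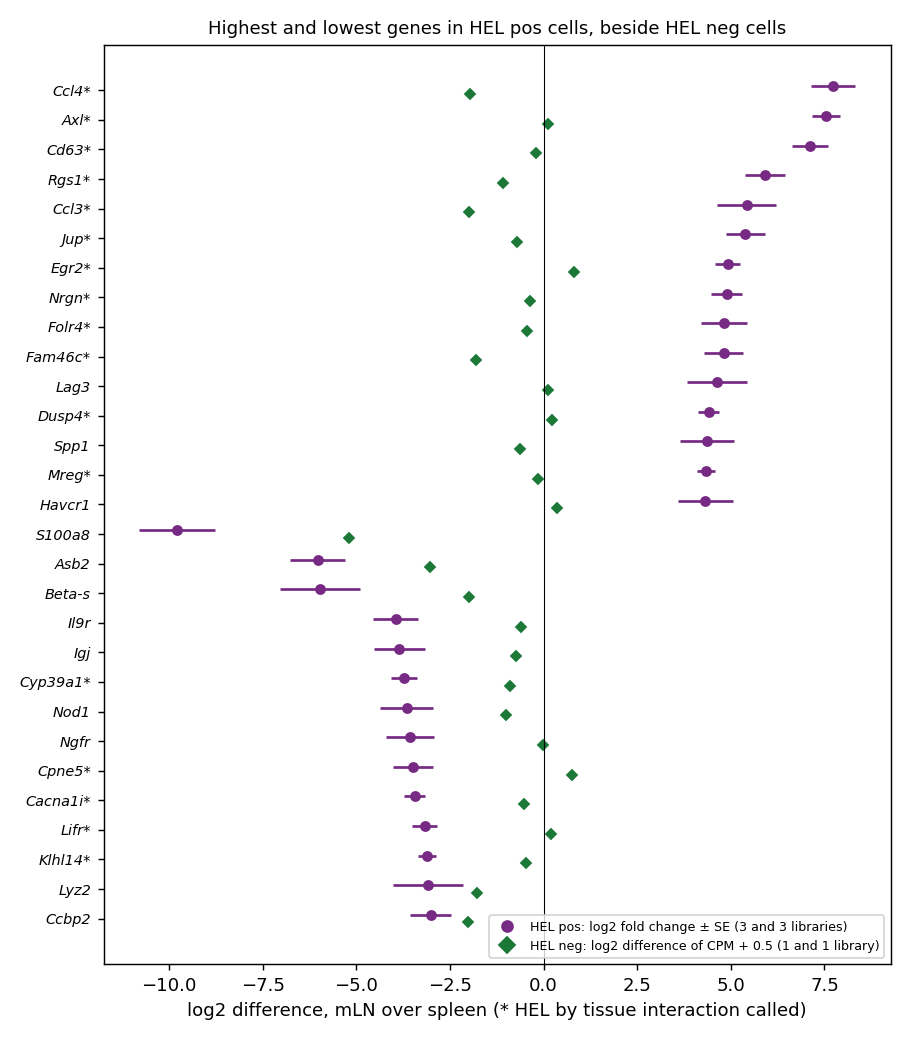
Log2 difference of mLN over spleen for the 15 highest and 14 of the 15 lowest named genes, as the fitted log2 fold change ± SE in HEL pos cells (circles, 3 libraries of each tissue) and the log2 difference of CPM + 0.5 in HEL neg cells (diamonds, 1 library of each tissue); an asterisk marks a called difference between the kinds. The diamonds of the highest genes lie between −2.00 and 0.80, and that of S100a8 lies at −5.19.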

How the data were processed

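RNA of sorted B cells was sequenced with single-end reads, per the labels. They mention a TruSeq kit and a Nextera XT kit, and whether counting used strand to separate overlapping genes is not given. The authors deposited whole-number counts per gene. STAR, HTSeq, DESeq2 and the mm10 mouse genome are named in the submitters' processing notes, with versions not given in the sources used here. Columns were assigned to libraries by their names.

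Genes were filtered with filterByExpr and scaled with TMM. Groups were compared with the two-sided quasi-likelihood test of edgeR 4.0.16 (R 4.3.3), with Benjamini-Hochberg adjustment over 11419 genes. The HEL pos and BCL2 HEL pos comparisons and their interaction came from 18 libraries in 6 groups (biological coefficient of variation 0.207, with 12 residual degrees of freedom), and the HEL interaction from 21 libraries in 9 groups. CPM are relative to the scaled total. Floors and exact intervals cover counting error only. The test was checked on simulated counts.

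Named genes were the 15 highest and 15 lowest called genes (average log2 CPM of at least 3, groups not overlapping), up to 6 called and the first 3 tested members of each gene list, the top genes of each interaction, and Bcl2. A further 65 genes were chosen after their values were seen, and not every gene so selected is reported. The comparison and lists were chosen with earlier results of these data known. Coordinates are from GENCODE M21 (408 of 418 named genes) and upstream sequences from RefSeq (GRCm38.p6). Alternatives were DESeq2 1.42.0, its size factors, no low-count filter, only the compared libraries, the library number as a block, and libraries left out singly or as pairs. No 2 libraries agreed within sampling noise.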

Additional observations from a re-analysis of the deposited data

Results flagged for a closer look

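Listed here are interactions called among the genes highest and lowest by fold change, the top genes of each interaction and a few further genes. Other named genes were not listed, and the B cell markers, for example, held called members too. The further genes (Nr4a1, Klf2, Pdcd1, Cd3e, Cd55 and Itgb7) were added because their interactions are given above. Each of them was called for an interaction, and genes given above without such a call, such as Notch2, were not added. The others were chosen by HEL pos fold changes or by the interactions themselves. The choice of all these genes thus favoured called interactions. Values are the interaction term of the fit, the log2 difference of the fold changes ± SE. Here the tissue difference (mLN over spleen) differed between HEL pos and BCL2 HEL pos cells for 12 genes (adjusted p 9.5e-04 to 0.033). It was more positive in HEL pos cells for Axl (2.69 ± 0.52), Jup (3.89 ± 0.75), Folr4 (3.99 ± 0.83), Dusp4 (2.04 ± 0.37), Mreg (1.53 ± 0.31), Tagap (2.01 ± 0.30), Gsto1 (1.39 ± 0.22), Litaf (1.81 ± 0.35), Pdcd1 (7.50 ± 1.51) and Cd3e (5.88 ± 1.15). It was more negative in HEL pos cells for Klhl14 (−1.72 ± 0.33) and Hes1 (−1.83 ± 0.23). Gsto1 encodes a glutathione transferase and Litaf a lysosomal membrane protein. In BCL2 HEL pos cells Jup, Folr4, Tagap, Pdcd1 and Cd3e were not called between the tissues, while the other genes given here were called in the same direction as in HEL pos cells.

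Between HEL pos and HEL neg cells the tissue difference differed for 26 genes of the same set (adjusted p between 6.4e-05 and 0.031). It was more positive in HEL pos cells for Ccl4 (10.30 ± 1.40), Axl (7.39 ± 1.00), Cd63 (7.35 ± 0.99), Rgs1 (7.24 ± 1.18), Ccl3 (11.92 ± 2.65), Jup (6.18 ± 1.04), Egr2 (4.07 ± 0.64), Nrgn (5.37 ± 1.01), Folr4 (5.37 ± 1.37), Fam46c (6.77 ± 1.08), Dusp4 (4.17 ± 0.53), Mreg (4.46 ± 0.47), Tagap (2.59 ± 0.43), Gsto1 (3.08 ± 0.35), Litaf (5.24 ± 0.57), Nr4a1 (3.05 ± 0.59) and Pdcd1 (13.75 ± 3.13). It was more negative in HEL pos cells for Cyp39a1 (−2.85 ± 0.62), Cpne5 (−4.29 ± 0.90), Cacna1i (−2.94 ± 0.48), Lifr (−3.40 ± 0.67), Klhl14 (−2.64 ± 0.46), Hes1 (−1.79 ± 0.32), Klf2 (−3.54 ± 0.57), Cd55 (−2.13 ± 0.28) and Itgb7 (−2.01 ± 0.30). HEL neg cells have 1 pooled library of each tissue, and Ccl3 and Pdcd1 had 0 counts in that of mLN, so their fitted values are no measure of size. The genes of the first set other than Cd3e are also in the second.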

How the results depend on the processing

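In the counts over all genes, no alternative tried reversed a direction, and those not given here stayed within 1.5 times the reported count. The 1476 higher and 1318 lower genes of HEL pos cells became 888 and 837 without both libraries 392 and 858 and 777 without both libraries 399, where fewer samples are compared, and without single libraries they ran from 1041 to 1309 and from 975 to 1219. The 659 higher and 483 lower genes of BCL2 HEL pos cells became 1039 and 907 with only the compared libraries in the fit, and 350 to 511 and 211 to 351 without single libraries. The 44 genes of the BCL2 by tissue interaction became 163 with DESeq2, 191 with no low-count filter, 90 with only the compared libraries, 2 without both pools, 22 without both libraries 392, 2 without both libraries 399 and 2 to 39 without single libraries. The 422 genes of the HEL by tissue interaction became 647 with DESeq2, 249 without both libraries 392, 179 without both libraries 399 and 252 to 442 without single libraries. The cause was not tested. Of 5842 values of named genes under alternatives, 5439 kept their side of the threshold, 359 lost it and 44 gained it. Of 1456 counts of called list members under alternatives, 173 moved by over 1.5 times, and 119 of 728 list medians moved by more than 1 SD over the same-numbered pairs.

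With the library number as a replicate block, the HEL pos counts were 1833 higher and 1615 lower, the BCL2 HEL pos counts 1009 and 764, the BCL2 by tissue interaction 192 and the HEL by tissue interaction 823. Same-numbered mLN and spleen libraries deviated together with correlations of 0.521 (Pool), 0.218 (392) and 0.0814 (399), and mLN 399 correlated best with spleen 392 (0.177). These correlations cannot decide how 392 and 399 pair, because each deviation is taken from a mean of only 3 libraries. The labels do not say whether same-numbered libraries share mice, and the main fit did not pair them. Calls of genes near the floor of 3 counts are limited by depth.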
